A study of Mus musculus with 20 samples.

Results

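The genes of the cytosolic ribosomal proteins, the protein part of the ribosome outside the mitochondria, were followed in the liver of 20 male mice. Members were the protein-coding genes with a symbol of the form *Rpl* or *Rps* and a number, and *Rplp0*, *Rplp1* and *Rplp2*, that had at least 10 reads in at least 5 mice. Of 82 protein-coding genes with such a symbol 75 were members, 30 of the small subunit (*Rps*) and 45 of the large subunit (*Rpl*), out of 55573 genes in the count tables. The 7 genes under the minimum were *Rps16* and *Rpl23a* (at most 11 reads in any mouse), *Rpl24* (at most 10), *Rpl38* (at most 4) and the paralogs *Rpl3l*, *Rpl39l* and *Rpl10l* (at most 2). *Rps16*, with the minimum in 2 mice, stood just outside the limit, and *Rps29*, with the minimum in 6 mice, just inside it.

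The mice were Titan mice (line DU6), selected for high body mass, and unselected control mice (FZTDU), at 11 weeks and at 19–21 weeks of age, with 5 livers in each of the 4 groups. Both lines are non-inbred and were fed a standard diet, and the Titan line had been founded anew from embryos of few animals, so a difference between the lines includes any difference in alleles that drifted as well as any that were selected. In bulk liver RNA, fewer cells of a type and less RNA per cell cannot be told apart. Libraries were made from RNA depleted of ribosomal RNA and keep the strand.

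Each eukaryotic ribosome holds one copy of nearly every ribosomal protein, and free ribosomal proteins are unstable, so the genes are known for coordinate production. Their mRNAs typically start with a C followed by a run of pyrimidines, the terminal oligopyrimidine or TOP motif, through which mTOR and Larp1 control translation. Many ribosomal protein genes also host small nucleolar RNAs in their introns, and mammalian genomes carry a large number of processed pseudogenes copied from their mRNAs. In liver the genes serve the high output of plasma proteins and enzymes of the hepatocyte.

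The start of transcription is where the TOP motif would lie, so a few starts are shown. The RefSeq table of promoters (GRCm38.p6, 250 bases before to 50 from the start on) held 67 starts of 56 members and 32851 starts in all. A C at the start base followed by 4 more C or T stood at 17.9% of the member starts and at 2.51% of all starts, and a run of at least 8 C or T that holds the start base at 23.9% and 3.86%. The letters CCGGAAG, on either strand, occurred in 35.8% of the 300-base member windows against 8.86% of all windows, and the letters TATAAA in 10.4% against 13.6%. Several windows of 1 gene overlap, and a match is only a match of letters. The lines give 30 bases each, 15 before and 15 from the annotated start on, for members described later, with a run of at least 5 C or T that holds the start in capitals.
Rpl15, chr14:18270972-18271001, minus strand: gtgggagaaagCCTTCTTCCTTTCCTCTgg
Rps9, chr7:3704026-3704055, plus strand: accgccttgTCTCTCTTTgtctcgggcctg
Rpl4, chr9:64173372-64173401, plus strand: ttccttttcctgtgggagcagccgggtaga
Rplp0, chr5:115559452-115559481, plus strand: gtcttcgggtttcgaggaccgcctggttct
Rps3, chr7:99483695-99483724, minus strand: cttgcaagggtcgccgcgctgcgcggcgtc
Rps4x, chrX:102189377-102189406, minus strand: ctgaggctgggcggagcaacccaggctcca
Rps28, chr17:33824548-33824577, minus strand: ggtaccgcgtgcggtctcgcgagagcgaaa
The windows of *Rpl15* and *Rps9* hold such a run at the annotated start and the others do not. The *Rpl4* window has a run of C and T that ends before its annotated start. Whether the annotated starts are the ones used in these livers was not tested.

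Counts were reads on the gene's own strand that map to 1 position, scaled to the library size with the TMM normalisation (CPM). Reads on genes ranged from 6794935 to 23295028 per mouse (median 12547300), and 18.4% to 41.96% of the aligned reads fell outside genes. Members took 0.211% to 0.272% of the gene reads in 11-week-old control mice, 0.176% to 0.226% in 11-week-old Titan mice, 0.214% to 0.260% in older control mice and 0.196% to 0.260% in older Titan mice. Genes of the mitochondrial genome took 4.68% to 15.98% of the gene reads. The hepatocyte markers (*Alb* and 5 others) summed to at least 67040 CPM in every mouse.

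Reads were spread very unevenly over the members. *Rpl4* alone held 15.1% of all member reads and *Rps3* 7.34%, and the 8 members with the most reads together held 52.9%. Per kb of exon, *Rplp1*, a protein of the ribosomal stalk, was highest at 279 CPM per kb, followed by *Rpl4* at 169 and the small subunit gene *Rps15* at 112. The lowest levels were those of *Rps10* (0.493 CPM per kb), *Rps6* (0.514), whose protein is the classical S6 kinase substrate, and *Rps13* (0.525). Levels also differed with how much of an mRNA is unique. Of the 50-base windows of a member's mRNA, 1.35% (*Rps27*) to 100% occurred in the transcript of no other gene (median 56.1%), and 14 members had under 20%. The median level was 1.35 CPM per kb in these 14 members, 5.53 in the 17 with 20 to 50%, 7.28 in the 32 with 50 to 80%, and 21.5 in the 12 with 80% or more. Levels are not compared further between members, and the comparisons that follow are between mice for the same gene.

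Pseudogenes took a part of the reads. BLAST matched 1234 annotated pseudogenes to 73 of the members (identity at least 90% over at least 100 bases), with a median of 12 per member and 127 for *Rpl7a*, the most. Of these, 946 had a read in some mouse, and together they held 4.16% of the reads of members and pseudogenes. The share was 84.2% for *Rps7*, 72.4% for *Rps13*, 55.6% for *Rpl17*, 53.2% for *Rpl26* and 50.4% for *Rpl36a*, the 5 largest. It was 0.0763% for *Rpl4*.

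At 11 weeks, some ribosomal protein genes were lower in Titan than in control livers. Of the 75 members 16 were downregulated and 1 was upregulated (adjusted p under 0.05, edgeR quasi-likelihood test with Benjamini-Hochberg adjustment over all 13783 genes tested). Over all tested genes 7.69% were called lower and 7.23% higher. The median log2 fold change of the members was -0.30, against -0.02 over all genes, and 63 of 75 members (84%) were below 0, as were 52.55% of all genes. Of the members, 4 (*Rpl26*, *Rps29*, *Rps6* and *Rpl36*) reached the count minimum in at least 5 control mice but in fewer than 5 Titan mice, and without these 4 the counts were 14 lower and 1 higher. The median and the share below 0 include these 4. Over all 75 members, the downregulated ones were 10 of the 30 small subunit genes, *Rps29* among them, and 6 of the 45 large subunit genes, *Rpl26* among them. In 10 members every Titan mouse lay below every control mouse, which held for 6.08% of all genes. The plot of the members shows 3 kinds of change: modest shifts in most members, very large differences in a few, and 1 gene called in the opposite direction.

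Most downregulated members with well-covered counts changed by modest amounts, while *Rps24*, described further below, changed by more. *Rpl4*, a protein that lines the exit tunnel of the large subunit, was at 377, 349.8, 400.3, 399 and 397 CPM in 11-week-old control mice (replicates 1 to 5) and at 294, 310.4, 292, 306 and 331 CPM in Titan mice of that age. All 5 Titan values lay below all 5 control values, with a log2 fold change of -0.33 ± 0.07 (SE, adjusted p = 0.00312). *Rps3*, a small subunit protein at the mRNA entry site that is also known for a role in DNA repair, was at 169, 183, 188, 186 and 204 CPM in control mice and 145, 134, 162, 129 and 154 CPM in Titan mice. These groups did not overlap (log2 fold change -0.36 ± 0.10, adjusted p = 0.0151).

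*Rps9*, an early assembling protein of the small subunit, showed 72.1, 76.9, 73.5, 83.6 and 90.8 CPM in the control livers and 51.6, 59.7, 69.2, 60.3 and 61.6 CPM in the Titan livers at 11 weeks. The Titan values were again all lower, with a log2 fold change of -0.39 ± 0.09 (adjusted p = 0.00651). *Rps14* (chromosome 18), the gene of the human 5q- anemia, had 69.1, 102, 82.3, 93.5 and 93.3 CPM in control and 62.1, 48.7, 72.5, 58.1 and 62.2 CPM in Titan mice. In 1 Titan mouse the level lay above that of the lowest control mouse, and the change was -0.54 ± 0.14 (adjusted p = 0.0143). *Rpl15* (21.7 ± 1.74 against 15.98 ± 1.54 CPM, SD, n = 5 each) and *Rpl32* (42.5 ± 3.57 against 30.5 ± 3.87 CPM) were lower without overlap. *Rps4x* and *Rplp0*, the scaffold of the stalk, changed by -0.36 and -0.29 on the log2 scale, with groups that overlapped. Without 1 mouse at a time, *Rplp0* lost its call in 6 of 20 fits, and all 6 left out a mouse of 11 weeks, the age compared.

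**Figure D1:**
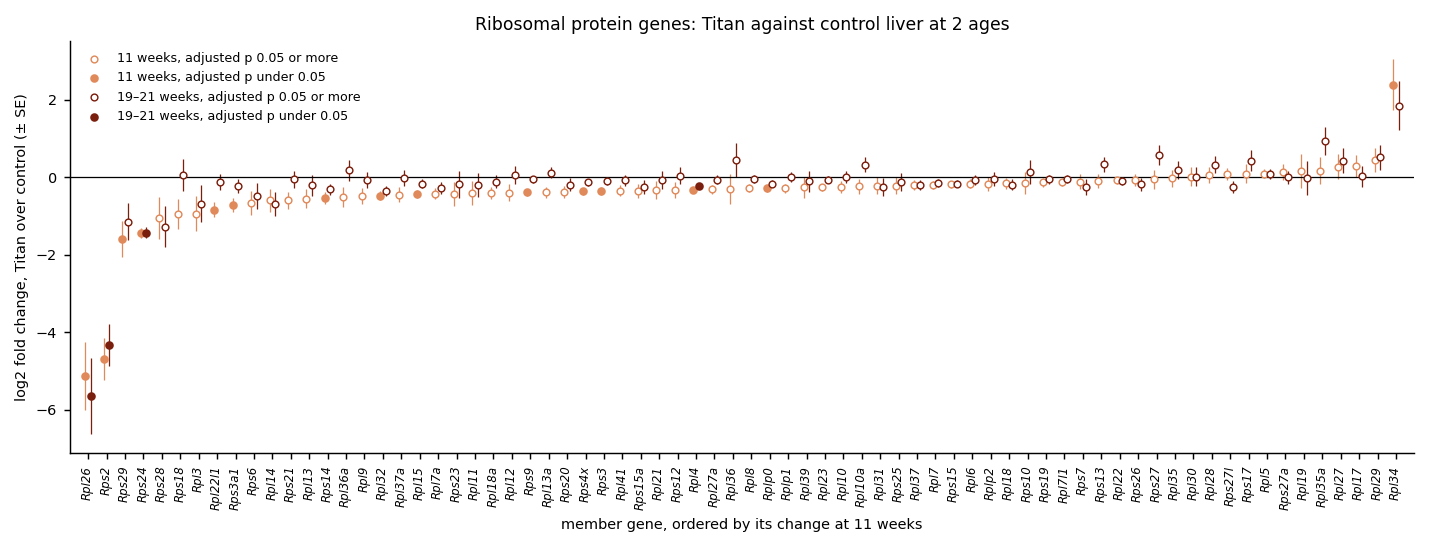
Log2 fold change of Titan over control for 72 of the 75 members at 11 weeks (orange) and 19–21 weeks (dark red), with standard errors, ordered by the change at 11 weeks. Filled points passed the test (of those drawn, 1 higher and 14 lower at 11 weeks and 4 lower at 19–21 weeks), and most open points at 11 weeks lie slightly below 0.

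**Figure D2:**
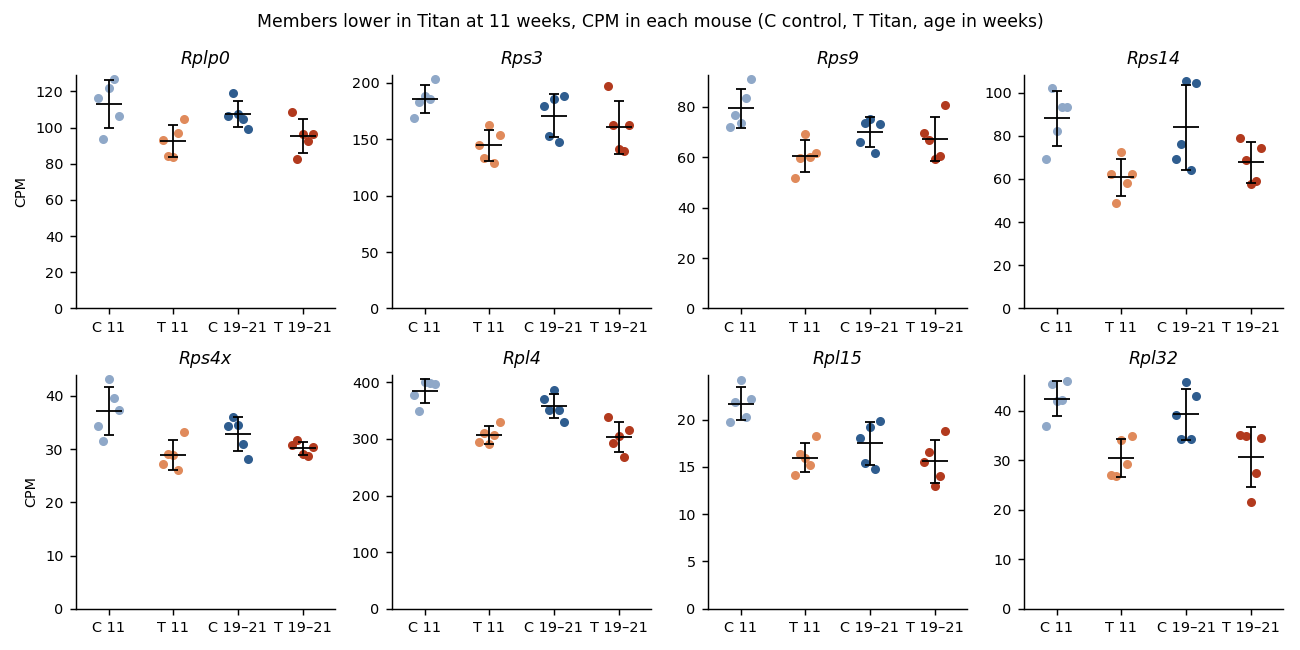
CPM of 8 members downregulated at 11 weeks in each of the 20 mice, with mean and SD in black. At 11 weeks the Titan means are all below the control means, while at 19–21 weeks the groups of most of these genes overlap.

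A paralog was among the members with larger changes. *Rpl22l1*, which encodes the alternative form of *Rpl22*, was at 9.62, 8.91, 8.67, 8.17 and 11.2 CPM in control and 2.89, 4.22, 6.49, 6.06 and 6.34 CPM in Titan mice at 11 weeks. Each Titan mouse was lower than each control mouse (log2 fold change -0.84 ± 0.20, adjusted p = 0.00637), while *Rpl22* itself changed by -0.08 ± 0.10. At 19–21 weeks the *Rpl22l1* groups overlapped, at 6.41 to 9.82 CPM in control and 4.98 to 8.89 CPM in Titan mice, and the difference between the ages did not pass the test (adjusted p = 0.457). The paralogs *Rps27l*, a p53 target, and *Rpl7l1* changed by 0.08 ± 0.15 and -0.13 ± 0.11 at 11 weeks. *Rps3a1* was lower at 11 weeks, with 6.59 to 9.87 CPM in control and 4.16 to 5.84 CPM in Titan mice (log2 fold change -0.72 ± 0.18, adjusted p = 0.00795). *Rps29* rested on few reads, 8 to 14 per control mouse and 0 to 7 per Titan mouse, and its change of -1.60 ± 0.46 (adjusted p = 0.0207) lost the call without control replicate 5 or Titan replicate 5. No Titan mouse reached the minimum of 10 reads, so *Rps29* was a member only through the control mice, and its call is no independent support for a direction. The Titan mouse with 0 *Rps29* reads allows up to 0.234 CPM (3 reads, counting error only).

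At 19–21 weeks the shift of the group was small and a few members carried the calls. The test called 5 members lower and 0 higher, beside 4.88% called lower and 4.24% called higher over all genes. The members' median was -0.09, against 0.01 over all genes, and 53 of 75 (70.7%) were below 0, as were 48.4% of all genes. The median was -0.05 without control replicate 3 of that age, -0.15 without Titan replicate 1 and -0.14 without Titan replicate 5. Without the 4 members that reached the minimum through control mice, 4 were lower and 0 higher. The medians and the share below 0 include those members. Every Titan mouse lay below every control mouse for 4 members, *Rps2*, *Rps24* and *Rpl26* among them, and for 4% of all genes. Of these, *Rpl26* was a member only through the control mice. At an unadjusted p under 0.05, 3 members were higher and 11 lower, and DESeq2 called 0 higher and 5 lower. *Rpl4* was at 371, 351, 386, 352 and 331 CPM in control and 339, 292, 306, 268 and 315 CPM in Titan mice. A single Titan mouse, at 339 CPM, lay above the lowest control mouse. The change of -0.24 ± 0.07 (adjusted p = 0.0407) lost its call in 8 of the 20 fits without 1 mouse. All 8 left out a mouse of 19–21 weeks, the age compared. *Rps3*, *Rps9* and *Rps14* changed by -0.09, -0.05 and -0.31 on the log2 scale, with adjusted p = 0.606, 0.771 and 0.19.

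No member passed the test for age. In Titan mice 0 of 75 members differed between 19–21 and 11 weeks, against 1.25% of all genes in either direction, and the median was 0.11. This median was 0.04 to 0.06 without Titan replicate 1, 2 or 4 of 11 weeks or replicate 1 or 5 of 19–21 weeks. In control mice 0 members differed, against 0.0871% of all genes, and the median was -0.10 (-0.05 without replicate 4 of 19–21 weeks). Whether age acted differently in the 2 lines was tested too, with 0 members called and 0.00726% of all genes, and a median of 0.20. At an unadjusted p under 0.05 the edgeR test gave 4, 2 and 3 members in these comparisons, and DESeq2 called 0 members in each. These comparisons share groups with those of the lines. The 3 members of the last count were *Rpl22l1* (0.70 ± 0.28), *Rpl13a* (0.51 ± 0.20) and *Rps9* (0.34 ± 0.13), named after their values were seen.

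The largest differences between the lines were in members whose mice fell at separate levels, and in some of them a pseudogene moved the other way. *Rpl26* (chromosome 11, 68901583 to 68906989, plus strand), whose protein sits at the tunnel exit and is known to bind p53 mRNA, had 0.337, 15.4, 13.2, 17.2 and 28.1 CPM in 11-week-old control mice and 15.5, 27.1, 0.647, 11.3 and 28.7 CPM in the older ones. Titan mice had 0.276, 0.625, 0.803, 0.0993 and 0.294 CPM at 11 weeks and 0.136, 0.293, 0.365, 0.337 and 0.425 CPM at 19–21 weeks, from at most 11 reads per mouse. Of the 10 control mice, 8 lay above 11 CPM, and the other 2 (11 weeks replicate 1 and 19–21 weeks replicate 3) lay in the Titan range. The log2 fold changes were -5.13 ± 0.89 (adjusted p = 0.000458) and -5.64 ± 0.99 (adjusted p = 0.00103). The minimum of 10 reads was reached in 9 control mice and 1 Titan mouse. *Rpl26* was thus a member only through the control mice, and its calls are no independent support for a direction.

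The processed pseudogene *Gm15772* (chromosome 5, 3236431 to 3236868, plus strand, 1 exon) matches *Rpl26* over 438 bases with 2 mismatches. Its counts were 13.1, 6.497, 6.29, 5.55 and 0 CPM in 11-week-old and 9.61, 0.0903, 14.1, 5.27 and 0 CPM in older control mice, and 9.51, 12.3, 11.4, 13.5 and 12.4 CPM and 11.4, 10.1, 9.36, 15.3 and 12.6 CPM in the Titan mice. The 3 control mice with the most *Rpl26* reads were the ones with at most 0.0903 CPM of *Gm15772*, and the 2 with the fewest were the control mice highest in *Gm15772*. With the counts of all 16 matched pseudogenes added, the groups were at 21.5 ± 5.304 CPM in control and 12.4 ± 1.51 CPM in Titan mice at 11 weeks (SD, n = 5 each). The change of the sum was -0.79 ± 0.19 (adjusted p = 0.00712) at 11 weeks and -0.88 ± 0.20 (adjusted p = 0.00749) at 19–21 weeks, so it stayed lower by a far smaller amount. Reads that fit both a member and a pseudogene are in neither count. The sums here and below are therefore not the total mRNA.

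Within the aligned part of such pairs, single bases tell the member and the pseudogene apart. The lines show 25 bases around 1 mismatch of each of 3 pairs, from GENCODE M21 transcripts, with the differing base in capitals and the substitution counted from the 5′ end of the member's mRNA (member base first).
Rpl26, C305T: tcaggttgttcgCggacactacaaa
Gm15772: tcaggttgttcgTggacactacaaa
Rps28, G183A: cgagagggtgacGtgctcaccctat
Gm10263: cgagagggtgacAtgctcaccctat
Rps24, C245T: tggtggcaagacCactggctttggc
Rps24-ps3: tggtggcaagacTactggctttggc
All 3 bases lie in coding exons of the members, at chromosome 11 position 68903187 (*Rpl26*, exon 3), chromosome 17 position 33823255 (*Rps28*, exon 3) and chromosome 14 position 24492044 (*Rps24*, exon 3) of GRCm38. Alleles of these mice were not analysed here, and their part in the counts was not tested.

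*Rps28*, a small protein at the mRNA exit of the small subunit (chromosome 17, 33819027 to 33824562, minus strand), was at 2.62, 15.7, 0.792, 9.88 and 14 CPM in the younger and 10.4, 3.52, 24.5, 20.3 and 11.1 CPM in the older control mice. In Titan mice it was at 3.24, 3.59, 5.25, 4.47 and 3.95 CPM at 11 weeks and 7.07, 6.16, 6.08, 5.397 and 4.42 CPM at 19–21 weeks. Control mice spread over 0.792 to 24.5 CPM, whereas the Titan mice lay between 3.24 and 7.07 CPM, inside that range. The changes of -1.06 ± 0.54 and -1.27 ± 0.54 did not pass the test (adjusted p = 0.211 and 0.145). A single mouse decided the call at 11 weeks: without control replicate 3, the one at 0.792 CPM, the change was -1.37 (adjusted p = 0.0416). Its pseudogene *Gm10263* (chromosome 13, 73317844 to 73318143, plus strand), aligned over 236 bases with 2 mismatches, had 3.29, 0.167, 0, 0 and 0 CPM and 0, 4.96, 0, 0 and 0 CPM in the younger and older control mice. Titan mice had 5.03, 8.44, 14.9, 4.57 and 7.31 CPM and 15.9, 14.4, 2.67, 5.06 and 14.7 CPM of it. All 10 Titan mice had *Gm10263* reads and 8 of 10 control mice had at most 0.167 CPM. With pseudogene counts added the direction turned, to 0.40 ± 0.47 at 11 weeks (adjusted p = 0.639) and 0.13 ± 0.46 at 19–21 weeks (adjusted p = 0.897).

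*Rps24*, mutated in some families with Diamond-Blackfan anemia, had the smallest p of all members at both ages. Its control values were 45.05, 51.1, 33.1, 33.2 and 48.97 CPM at 11 weeks and 43.7, 47.4, 48.6, 45.9 and 43.5 CPM at 19–21 weeks, and its Titan values were 12.2, 14.4, 16.8, 19.3 and 15.8 CPM and 20.8, 15.6, 15.1, 17.3 and 16.5 CPM. All 10 Titan mice lay below all 10 control mice. The changes were -1.43 ± 0.13 (adjusted p = 6.9e-07) and -1.43 ± 0.13 (adjusted p = 1.24e-06). The pseudogene *Rps24-ps3* on chromosome X (79195047 to 79195448, plus strand; 4 mismatches over 402 bases) was at 0.169, 0.167, 7.43, 8.41 and 0.483 CPM and 0.343, 0.271, 0.486, 0.264 and 0.252 CPM in control mice and at 10.1, 10.5, 12.8, 10.8 and 14.03 CPM and 17.1, 15.3, 13.6, 11.3 and 13.7 CPM in Titan mice. Among the controls, 2 younger mice (replicates 3 and 4) had more than 1 CPM of it, and these 2 had the lowest *Rps24* values among the controls. The sum over all 13 matched pseudogenes was still lower in Titan mice, with log2 fold changes of -0.70 ± 0.09 (adjusted p = 3.87e-05) and -0.54 ± 0.10 (adjusted p = 0.00113). This sum, too, leaves out reads that fit both genes.

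**Figure D3:**
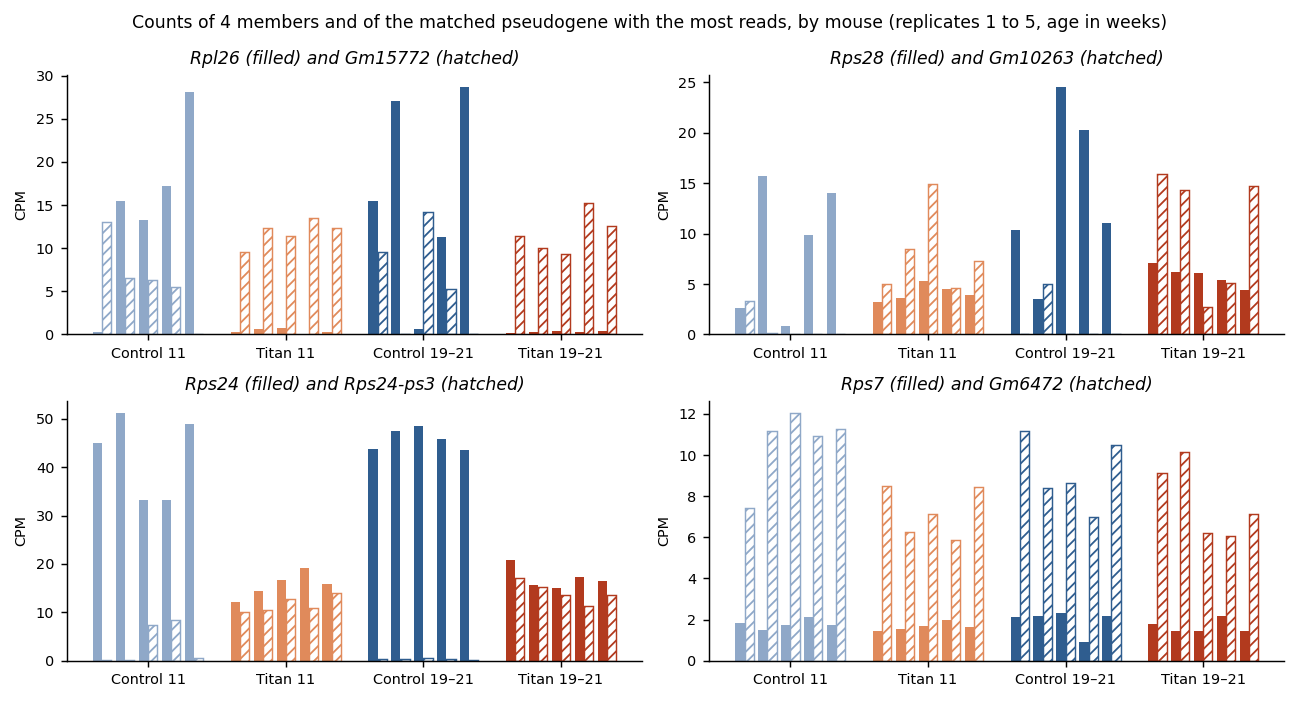
CPM of *Rpl26*, *Rps28*, *Rps24* and *Rps7* (filled bars) and of the matched pseudogene with the most reads (hatched bars) in each of the 20 mice, replicates 1 to 5 in each group. *Rpl26* bars are nearly absent in Titan mice while *Gm15772* bars are present in all of them, and *Rps24-ps3* bars are high in Titan mice and in 2 control mice of 11 weeks.

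*Rps2*, which encodes uS5 of the decoding region (chromosome 17, 24718116 to 24721929, plus strand), had 1.27, 20.7, 20.5, 22.4 and 22.5 CPM in 11-week-old and 15.01, 22.9, 17.6, 39.8 and 20.5 CPM in older control mice. Titan mice had 0.482, 0.8596, 1.02, 0.596 and 0.504 CPM and 1.903, 0.977, 1.34, 0.843 and 0.8498 CPM. Of the control mice, 9 were at 15.01 CPM or more and 1 (11 weeks replicate 1) was at 1.27 CPM. The changes were -4.68 ± 0.54 (adjusted p = 7.53e-06) and -4.33 ± 0.54 (adjusted p = 3.55e-05). Its 81 matched pseudogenes held 40.1% of the summed reads, and the sum was lower in Titan mice, with log2 fold changes of -1.52 ± 0.30 and -1.77 ± 0.31 (adjusted p = 0.00144 and 0.00101). The pseudogene *Rps2-ps13* (chromosome X) was above 1 CPM in 7 of 10 Titan mice and in 1 control mouse. It did not mirror *Rps2* mouse by mouse. That control mouse (19–21 weeks replicate 1, 5.23 CPM) had *Rps2* at 15.01 CPM, and the control mouse low in *Rps2* had 0.0844 CPM of the pseudogene. Titan replicate 5 of 11 weeks and replicates 1 and 5 of 19–21 weeks had 0 CPM of it, with *Rps2* at 0.504, 1.903 and 0.8498 CPM.

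*Rpl34* (chromosome 3, 130726831 to 130730398, minus strand) was the 1 member higher in Titan mice at 11 weeks. Control mice had 3.04, 3.17, 2.77, 3.17 and 24.8 CPM at 11 weeks and 2.57, 2.17, 2.86, 21.3 and 28.2 CPM at 19–21 weeks, and Titan mice 30.8, 38.8, 42.98, 40.4 and 40.4 CPM and 52.6, 37.5, 28.8, 35.2 and 45.2 CPM. Of the control mice, 7 lay between 2.17 and 3.17 CPM and 3 between 21.3 and 28.2 CPM, all below the lowest Titan mouse. The change passed the test at 11 weeks (2.39 ± 0.65, adjusted p = 0.0151) and not at 19–21 weeks (1.85 ± 0.64, adjusted p = 0.0768), and the difference between the ages was not called (adjusted p = 0.922). The 14 matched pseudogenes of *Rpl34* held 2.10% of the summed reads. *Rpl35a* was at 30.7, 4.51, 5.29, 4.74 and 15.4 CPM in the older control mice and at 16.6 to 27.3 CPM in the 15 mice of the other groups, and *Rpl3* was at 9.75 to 12.1 CPM in 4 control mice and at 2.04 to 4.86 CPM in the other 16 mice; both were singled out after their values were seen.

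Above a level of 2 CPM, wide spreads within a group were counted mostly in control mice. Among members with a mean of at least 2 CPM in a group, the highest mouse was over 4 times the lowest for 7 of 61 members in 11-week-old control mice, 5 of 61 in older control mice, 0 of 58 in 11-week-old Titan mice and 1 of 61 in older Titan mice. The median ratio of the highest to the lowest mouse was 1.42, 1.56, 1.47 and 1.58 in the same order. The difference between the lines in this count was not tested.

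**Figure D4:**
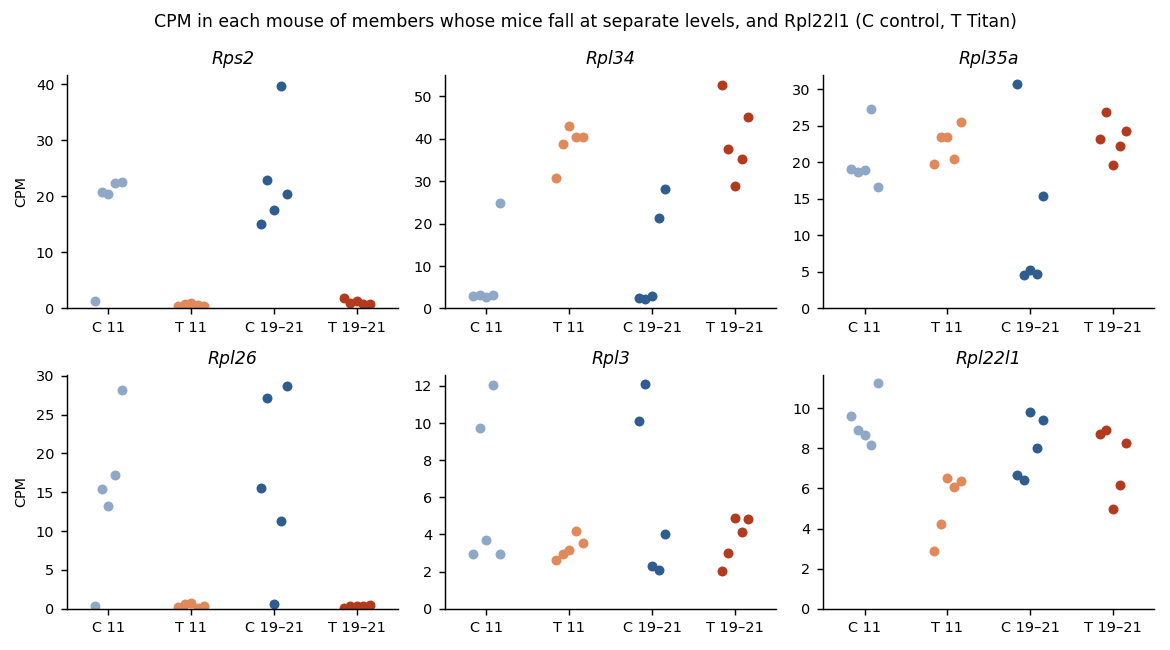
CPM in each mouse of 5 members whose mice lie at separate levels or far apart, and of *Rpl22l1*. *Rps2* is near 0 in all Titan mice and 1 control mouse, and *Rpl34* is high in all Titan mice and 3 control mice.

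Adding pseudogene counts to every member changed few calls. At 11 weeks 18 members were then lower and 1 higher, and 16 of the 17 calls were shared. *Rps7*, which is known to act on Mdm2, was gained: its own count differed little (1.499 to 2.13 against 1.45 to 1.99 CPM), but most of its reads lay on the pseudogene *Gm6472* (chromosome X), at 7.42, 11.2, 12.03, 10.9 and 11.2 CPM in control and 8.48, 6.25, 7.15, 5.86 and 8.45 CPM in Titan mice. The sum changed by -0.48 ± 0.14 (adjusted p = 0.0211). *Rpl27a* and *Rpl7a* were gained too (-0.38 and -0.43, against -0.32 and -0.43 without pseudogenes), and *Rps3a1* was lost (adjusted p = 0.0689). At 19–21 weeks 7 members were lower, the 5 calls were shared, and *Rps29* (-1.29 ± 0.32) and *Rps3a1* (-0.82 ± 0.24) were gained. Of the pseudogenes in the *Rps3a1* sum, *Rps3a3* was at 19.6 CPM in older control replicate 5 and at most 0.169 CPM in every other mouse.

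The shift at 11 weeks was seen in members with more and with less unique mRNA. At 11 weeks the median log2 fold change was -0.29 over the 44 members with at least 50% unique windows, 11 of them lower, and -0.34 over the 31 with less, 5 of them lower. The 11 include *Rps29* and the 5 include *Rpl26*. Among the 40 members at 10 CPM or more the median was -0.31, with 36 of 40 below 0, and among the 35 below that level it was -0.30, with 27 of 35 below 0. *Rpl26*, *Rps29*, *Rps6* and *Rpl36*, members only through the control mice, are all among these 35. All but *Rps29* are also among the 31 with less unique mRNA. They are no independent support for a direction, and the medians were not recomputed without them. At 19–21 weeks the medians were -0.10 and -0.07 for the first pair, and -0.14 and 0.01 for the second.

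**Figure D5:**
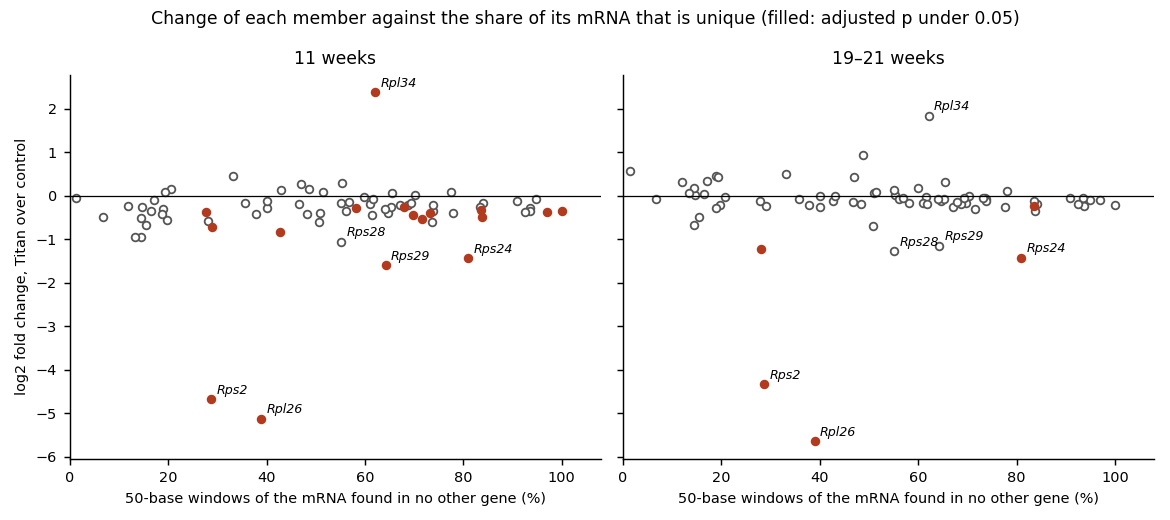
Log2 fold change of each member against the share of its mRNA windows found in no other gene, at 11 weeks (left) and 19–21 weeks (right), with called members filled. The 2 members below -4, *Rpl26* and *Rps2*, have 39.0% and 28.7% unique windows, while most changes at 11 weeks lie just below 0 along the whole axis.

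Ribosomal protein genes outside the symbol rule were lower or not called. Of 4 tested, *Rpsa*, *Fau* and *Rack1* among them, 2 were lower at 11 weeks and 1 at 19–21 weeks. *Rpsa*, the laminin receptor precursor, fell from 5.84 ± 1.45 to 2.07 ± 0.349 CPM at 11 weeks (log2 fold change -1.49 ± 0.20, adjusted p = 3.81e-05) and changed by -1.26 ± 0.21 (adjusted p = 0.00054) at 19–21 weeks. *Rack1*, a scaffold protein on the small subunit, changed by -0.30 ± 0.08 (adjusted p = 0.0137) at 11 weeks. Of the 5 tested paralogs, 2 were lower at 11 weeks, *Rpl22l1* and *Rps4l* (-1.56 ± 0.40, adjusted p = 0.0103), which is not annotated as protein-coding, and 0 at 19–21 weeks by edgeR (1 at an unadjusted p under 0.05) and by DESeq2.

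Other genes of the translation machinery were counted list by list, and these counts are to be read against all tested genes, of which 7.69% were called lower and 7.23% higher at 11 weeks and 4.88% and 4.24% at 19–21 weeks. Of 16 translation genes with known TOP mRNAs, 3 were lower and 1 was higher at 11 weeks, and 1 was lower and 1 higher at 19–21 weeks. *Npm1*, a nucleolar chaperone of ribosome assembly, changed by -0.70 ± 0.13 (adjusted p = 0.00087) and -0.81 ± 0.13 (adjusted p = 0.000631), and *Eif4b*, which stimulates the helicase of initiation, by -0.29 ± 0.08 (adjusted p = 0.0188) at 11 weeks. The third lower gene at 11 weeks was *Eef1d*, a subunit of the elongation factor exchange complex (-0.28 ± 0.09). *Nap1l1*, a histone chaperone, was higher at both ages (0.61 ± 0.14 and 0.59 ± 0.14). The medians of this list were -0.16 and -0.06, against -0.02 and 0.01 over all genes.

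Ribosome biogenesis genes were called lower in 4 of 56 cases at 11 weeks, a share no higher than the 7.69% over all genes, with medians of -0.16 at 11 weeks and -0.02 at 19–21 weeks. The edgeR test called 0 of them higher at 11 weeks, and DESeq2 called 1 higher. At that age 9 had an unadjusted p under 0.05 in the edgeR test, counted over both directions and with the 4 lower genes included. At 19–21 weeks edgeR called 0 in either direction (3 had such a p, and DESeq2 called 0). The 3 with the smallest p were *Polr1c*, a subunit of RNA polymerases I and III (-0.48 ± 0.11, adjusted p = 0.00346), the kinase *Riok2* (-0.47 ± 0.11) and *Efl1*, a GTPase of late large subunit maturation (-0.31 ± 0.09), and the other was *Nop16* (-0.44 ± 0.14). Of 9 host genes of small nucleolar RNAs, 2 were higher and 1 lower at 11 weeks, and 2 were higher at 19–21 weeks. *Snhg8* was higher at both ages (1.25 ± 0.17 and 1.5 ± 0.18), *Snhg3* at 19–21 weeks (0.61 ± 0.15), *Snhg6* at 11 weeks (0.49 ± 0.16), and *Snhg1* was lower at 11 weeks (-0.52 ± 0.15).

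Among 21 regulators of ribosomal protein synthesis, 2 were higher and 2 lower at 11 weeks and 0 were called at 19–21 weeks by edgeR (2 at an unadjusted p under 0.05) and by DESeq2. The 11-week counts are near the shares over all genes, 7.23% higher and 7.69% lower. *Mtor*, the kinase that acts on TOP mRNAs, rose from 91.1 ± 18.3 to 141 ± 22.7 CPM (log2 fold change 0.63 ± 0.15, adjusted p = 0.00724). *Myc*, a transcription factor of ribosome genes, was at 11.99 ± 9.504 CPM in control and 3.41 ± 2.14 CPM in Titan mice (-1.77 ± 0.51, adjusted p = 0.0214), and *Eif4ebp3*, a translation repressor, changed by -1.18 ± 0.35 (adjusted p = 0.0255). *Mycn*, a relative of *Myc*, changed by 1.23 ± 0.41 (adjusted p = 0.0466), and *Mycn*, *Eef1d* and *Nop16* were named after their values were seen. These are mRNA counts, and the activity of mTOR was not measured in these files.

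Marker genes of liver cell types were set beside these results. At 11 weeks 2 of 6 hepatocyte markers (*Apoa1* and *Cps1*) and 2 of 5 endothelial markers (*Kdr* and *Pecam1*) were lower, 1 of 5 stellate markers (*Des*) and 1 of 2 tested lymphocyte markers (*Cd3e*) were higher, and 0 of 6 Kupffer cell, 0 of 3 cholangiocyte, 0 of 3 erythroid and 0 of 3 proliferation markers were called by edgeR or DESeq2 (1 proliferation marker and 0 of the others had an unadjusted p under 0.05). At 19–21 weeks *Cd3e* was the 1 marker called. The endothelial markers summed to 473 to 515 CPM in younger control mice and 406 to 472 CPM in younger Titan mice, and to 450 to 490 and 409 to 504 CPM in the older groups. The hepatocyte markers summed to 77870 to 101000 CPM in younger control and 82790 to 100700 CPM in younger Titan mice. The lymphocyte markers stayed at 11.1 to 31.9 CPM in sum in all mice. No listed marker was at 0 in all mice, and the part of cell composition in the members' change was not tested.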

How the data were processed

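Liver RNA was sequenced from 20 mice, 5 in each of 4 groups. Per the study's methods, RNA was extracted with Trizol, ribosomal RNA was depleted, and stranded libraries were aligned to GRCm38 with the Ensembl 97 annotation. The counts deposited by the authors are STAR (version 2.5.3a) reads per gene, in which reads that map to several places or to several genes are not counted. The reverse-strand column was used. Totals of 6794935 to 23295028 reads set the precision, and limits for 0 reads cover counting error only.

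Genes were fitted together with edgeR 4.0.16 (R 4.3.3; TMM, filterByExpr, quasi-likelihood test, 1 fit over 4 groups), without 109 histone genes and 1562 genes on the Y chromosome. Benjamini-Hochberg adjustment ran over 13783 genes, with a threshold of 0.05. Pseudogenes were matched with blastn 2.17.0 to GENCODE M21 transcripts. DESeq2 1.42.0 and 11 other settings, and 20 fits without 1 mouse each, were alternatives.

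Members and lists were chosen with earlier results of these data known. Named members were the markers *Rps28* and *Rps14*, per comparison and direction the 10 with the smallest p among those called, the 3 highest and 3 lowest per kb, the paralogs, the 5 with the largest pseudogene share, and those whose call changed with pseudogene counts added, and up to 3 called genes of each other list. Nothing in the labels says how the mice were housed or which libraries were made together, so p-values measure the spread between these mice. Some genes of the groups counted are not reported here by name, and the plot of fold changes leaves out 3 members.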

Additional observations from a re-analysis of the deposited data

Results flagged for a closer look

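In 8 of 140 groups of 5 mice a single mouse stood far from the other 4 (Dixon's ratio above 0.71), where about 7 are expected by chance. In 11-week-old control mice, *Rpl34* was at 24.8 CPM in replicate 5 and at 2.77 to 3.17 CPM in the others, *Rps2* was at 1.265 CPM in replicate 1 and at 20.45 to 22.5 CPM in the others, and *Rpl36a* was at 2.28 CPM in replicate 5 and at 1.17 to 1.44 CPM in the others. Replicate 4 of that group had *Rpl35a* at 27.25 CPM, with 16.55 to 19.15 CPM in the others, and *Rpl14* at 22.5 CPM, with 14.97 to 16 CPM in the others. In 19–21-week-old control mice, replicate 4 had the lowest *Rps29*, at 0.132 CPM (0.772 to 0.923 CPM in the others), and the lowest *Rps7*, at 0.922 CPM (2.14 to 2.32 CPM). In 19–21-week-old Titan mice, *Rps3a1* was at 5.37 CPM in replicate 2 and at 6.54 to 6.93 CPM in the others.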

How the results depend on the processing

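At 11 weeks the count of lower members was 13 to 22 over the 12 other settings and 14 to 19 without 1 mouse, and that of higher members was 1 in each other setting and 1 to 2 without 1 mouse (2 without control replicate 4, which added *Rpl29*). At 19–21 weeks lower members numbered 2 with at least 10 counts in every mouse and 2 with only the groups compared, against 5, and 4 to 5 without 1 mouse. Other settings gave more at that age, 7 with pseudogene counts added. Counts over both strands added *Rpl32*, and the mitochondrial genome share as covariate added *Rpl32* and *Rps14*. Higher members there numbered 1 with no filter on low counts and 1 with the replicate block, against 0, both times *Rpl34*, and 0 to 1 without 1 mouse (*Rpl34* without replicate 5 of either control group, *Rpl35a* without 19–21-week control replicate 1). In control mice 0 to 1 members differed with age without 1 mouse (*Rpl35a*, without 19–21-week control replicate 1). *Rps28* reversed with pseudogene counts added, to 0.40 at 11 weeks and 0.13 at 19–21 weeks, since the reads of *Gm10263* then count for it. For the other changes the cause was not tested, except that *Rpl26*, *Rps2* and *Rps29* are not tested when every mouse needs 10 counts. Of 17 calls at 11 weeks 13 held under all alternatives, and of 5 at 19–21 weeks 3 did. Replicate numbers did not pair the mice: same-numbered mice correlated by -0.17 to 0.0856, and the block gave 18 lower and 1 higher members at 11 weeks and 4 lower and 1 higher at 19–21 weeks. Few reads limit *Rps29* and *Rpl26* in Titan mice.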
